A study of Mus musculus with 6 samples.

Results

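Expression of 9 adipogenic genes was described in RNA-seq libraries of mouse cells, to see how regulators of fat cell commitment and lipid-handling genes differed after knockout of S100a8. The genes were taken by their symbols: the regulators Pparg, Cebpa, Cebpb and Zfp423, and the lipid-handling and secreted genes Fabp4, Plin2, Lpl, Cd36 and Adipoq. All 9 were found among the 18051 genes of the deposited table, and 5 of them were abundant enough to be tested. The control group held 3 libraries labelled as vector control, and the knockout group held 3 libraries labelled as Cas9 knockout of S100A8. All 6 libraries are labelled as hematopoietic stem cells and as total RNA. The study's text places its lentiviral CRISPR experiment on S100a8 in mouse embryonic fibroblasts selected with puromycin, with glycyrrhizic acid, a licorice saponin, added before sequencing. Its methods for the CRISPR vector and virus also describe the addition of lentiviral particles to cultured hematopoietic stem cells. The labels name no compound, strain, age or clone, so whether any library received the compound is not known. The labels also do not say whether replicates were separate cultures, so the p-values below reflect library-to-library spread alone, part of which may be technical.

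Fat cells arise from mesenchymal precursors, fibroblasts among them. Zfp423 encodes a zinc finger protein that marks cells committed to this fate. On induction, the transcription factors C/EBP-beta and C/EBP-delta appear early and switch on PPAR-gamma and C/EBP-alpha, which keep each other active and turn on the genes of the mature cell. Among those genes are the fatty acid carrier Fabp4, the lipid droplet coat protein Plin2, the secreted lipase Lpl, the fatty acid transporter Cd36 and the hormone adiponectin (Adipoq). Apart from Adipoq, these genes do not belong to fat cells alone: Plin2 coats droplets in many cell types, Fabp4, Lpl and Cd36 are made by macrophages or endothelial cells too, and Cebpb also acts in inflammatory responses.

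Upstream sequence is shown for the members that were lower in the knockout and have an entry in the RefSeq promoter table of build GRCm38.p6, in which 7 of the 9 members were found. Lpl and Fabp4 have none. Each line holds the 250 bases before a transcription start, read 5′ to 3′ on the strand of the gene. The windows are chr2:167688665-167688914 on the forward strand for Cebpb, chr7:35119043-35119292 on the forward strand for Cebpa and chr4:86670060-86670309 on the reverse strand for Plin2. The Plin2 window overlaps the annotated gene (chr4:86626910-86670217), so it precedes a start inside that span. Capitals mark matches on either strand to the CCAAT box, to the TATA box spelled TATAAA, to the core of the palindrome that C/EBP factors bind, spelled TTGCNNAA, or to the hexamer of nuclear receptors such as PPAR-gamma, spelled AGGTCA. A match on the opposite strand appears as its reverse complement.
Cebpb: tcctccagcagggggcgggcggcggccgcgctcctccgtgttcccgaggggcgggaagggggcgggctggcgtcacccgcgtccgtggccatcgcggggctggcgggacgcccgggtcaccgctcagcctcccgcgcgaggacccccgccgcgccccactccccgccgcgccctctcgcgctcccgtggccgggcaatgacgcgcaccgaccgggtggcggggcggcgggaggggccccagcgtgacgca
Cebpa: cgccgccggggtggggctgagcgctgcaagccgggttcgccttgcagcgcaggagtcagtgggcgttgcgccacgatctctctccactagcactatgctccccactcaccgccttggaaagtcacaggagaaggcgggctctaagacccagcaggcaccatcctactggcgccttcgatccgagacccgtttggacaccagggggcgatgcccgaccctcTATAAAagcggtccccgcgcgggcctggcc
Plin2: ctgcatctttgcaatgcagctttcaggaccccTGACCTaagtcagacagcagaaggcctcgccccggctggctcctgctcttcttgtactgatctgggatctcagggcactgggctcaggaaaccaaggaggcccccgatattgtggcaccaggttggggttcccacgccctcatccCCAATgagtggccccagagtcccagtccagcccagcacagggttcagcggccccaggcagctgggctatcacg

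The Cebpb window held none of the 4 motifs, the Cebpa window held 1 TATAAA, and the Plin2 window held 1 CCAAT and 1 AGGTCA, with no overlap between motifs. Of 32851 promoter windows of the same length, 33.8% held CCAAT, 12.4% held TATAAA, 9.56% held TTGCNNAA and 14% held AGGTCA. The bases G and C made up 81.6% of the Cebpb window, 66.4% of that of Cebpa and 61.6% of that of Plin2. The median over all windows was 52.4%. A match describes the letters alone, and a lack of one says nothing about binding of a factor.

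The targeted gene S100a8 had 3.67, 1.61 and 3.95 FPKM (fragments scaled to transcript length and to the mapped fragments of the library) in the controls, and each knockout library listed it at 0 (exact two-sided permutation p = 0.1, the smallest that 3 against 3 libraries allow). Depth is unknown, since the files hold no counts. Knockout replicate 2 stood apart, with log2 values that correlated at 0.9862 or more with the other knockout libraries across tested genes, against at least 0.9975 between control libraries. Markers of the labelled cell type were mixed. Of the 16 on that list, Ptprc and Kit were listed at 0 throughout, which can be a failed estimate, while Ly6a, Cd34 and Gata2 were the most abundant. Of 7 tested, 4 fell and 1 rose, and Hlf, with the largest change, fell by 2.83, from a mean of 7.18 to 0.147 FPKM. Runx1 and Procr, at control means of 6.58 and 7.38 FPKM, did not pass, and Mecom rose. Fibroblast markers were abundant, led by Vim, S100a4 and Col1a2, and 10 of the 12 on that list had a mean of at least 10 FPKM. Their summed level was 5360 to 5466 FPKM in the control and 6948 to 7924 in the knockout libraries. Of 11 tested, 8 rose, 1 fell and 2, S100a4 among them, did not pass. Beside the counts of both marker lists, 26.7% of all 11112 tested genes fell and 23.6% rose. Dcn, which encodes the matrix proteoglycan decorin, fell by 3.57, from a mean of 67.2 to 4.73 FPKM (limma adjusted p = 1.35e-08), a larger difference than that of any member. In bulk RNA, fewer cells of a type and less RNA per cell cannot be told apart, for every difference that follows.

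Of the transcription factors, Cebpb and Cebpa fell in the knockout. Cebpb, the early C/EBP factor, had 156.18, 146.07 and 156.07 FPKM in control replicates 1, 2 and 3, against 62.47, 62.03 and 52.33 FPKM in knockout replicates 1, 2 and 3. Every control library lay above every knockout library, with a wide gap between the groups. The control mean was 2.59 times the knockout mean, and Cebpb fell by 1.36 on the log2(FPKM + 1) scale (standard error 0.0808, 95% interval -1.55 to -1.18, limma adjusted p = 4.92e-06). Cebpb is a single-exon gene on chromosome 2 (chr2:167688915-167690432 in GRCm38, forward strand), and an annotated exon of Tmem189 overlaps it on the opposite strand. Tmem189 had 28.7 to 29.3 FPKM in the controls against 20.03 to 21.85 FPKM in the knockouts. The use of strand in counting is not given in the sources used here, so reads from the shared stretch cannot be told apart.

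Cebpa, which maintains the differentiated fat cell, was far less abundant. Its levels were 3.31, 3.18 and 3.37 FPKM in the controls against 2.54, 2.33 and 2.43 FPKM in the knockouts. The groups did not overlap, but the knockout kept 74.0% of the control level. Cebpa fell by 0.32 on the log2(FPKM + 1) scale (standard error 0.0681, 95% interval -0.48 to -0.16, limma adjusted p = 0.00553). It lies on chromosome 7 (chr7:35119293-35121928, forward strand), whose 803 tested genes had a median difference 0.23 below that of all tested genes. Such shifts varied by chromosome and were largest at 0.43 for chromosome 14, 0.39 for chromosome 18 and -0.34 for chromosome X. With the genes of each chromosome centred, the difference of Cebpa was -0.086 and no longer passed (adjusted p = 0.350). The antisense gene Gm45091, not analysed here, overlaps it.

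Pparg, the receptor at the centre of fat cell differentiation, and Zfp423 were both under the mean of 1 FPKM set for testing. Pparg had 0.24, 0.15 and 0.49 FPKM in the controls against 0.56, 0.40 and 0.66 FPKM in the knockouts. The groups overlapped through control replicate 3, with p = 0.2 in a two-sided exact permutation test. Pparg has several starts on chromosome 6 (chr6:115360879-115490404, forward strand), and a value per gene does not separate its isoforms. Zfp423 (chr8:87661810-87962053, reverse strand) was read at 0.01 FPKM in each control library and at 0.16, 0.17 and 0.13 FPKM in the knockout libraries. Its groups did not overlap (two-sided exact permutation p = 0.1), yet 0.01 is the smallest step of the table, so a ratio of these levels carries little precision. The size of these changes on the log scale depends on the pseudocount: with 0.1 in place of 1, the difference went from 0.26 to 0.77 for Pparg and from 0.19 to 1.20 for Zfp423. With no filter on low values Zfp423 passed the threshold (adjusted p = 0.000481) and Pparg did not (adjusted p = 0.113).

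**Figure D1:**
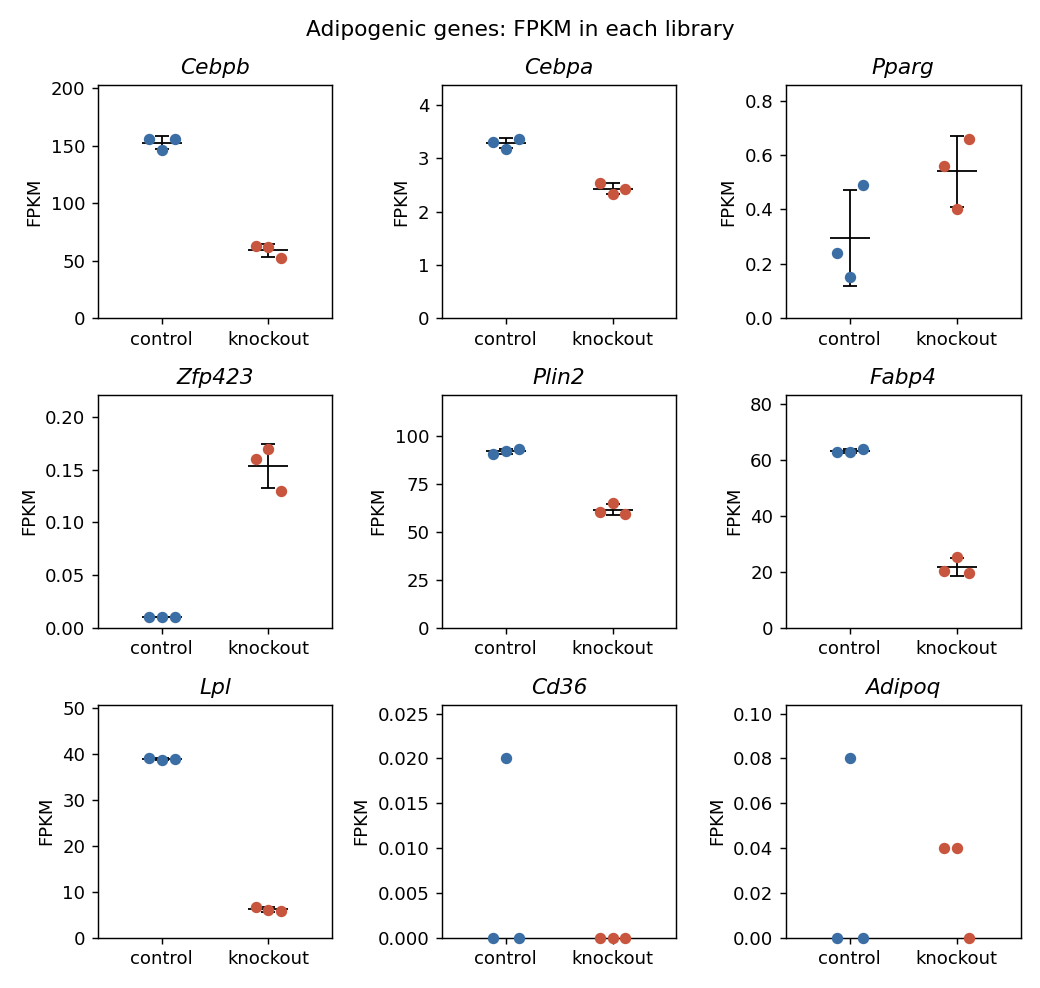
FPKM of the 9 adipogenic genes in each library, with a panel per gene and its own axis from 0; points are libraries, and bars give the mean and SD of 3 libraries except for Cd36 and Adipoq, which are listed at 0 in some libraries. Cebpb, Cebpa, Plin2, Fabp4 and Lpl lie lower in all 3 knockout libraries, Zfp423 lies higher near the bottom of the measured range, and Pparg overlaps.

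Of the lipid-handling genes, Lpl, Fabp4 and Plin2 fell. Lpl, lipoprotein lipase, which frees fatty acids from circulating triglyceride, had 39.10, 38.75 and 38.91 FPKM in the controls against 6.79, 5.97 and 5.84 FPKM in the knockouts. The control libraries differed by a coefficient of variation of 0.450%, and all of them lay far above the knockout libraries. The control mean was 6.28 times the knockout mean, and Lpl fell by 2.47 on the log2(FPKM + 1) scale (standard error 0.0680, 95% interval -2.63 to -2.32, limma adjusted p = 6.92e-08). Lpl lies on chromosome 8 (chr8:68880555-68906932, forward strand). Of the 11112 tested genes, 123 (1.11%) had a lower difference than Lpl.

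Fabp4, which carries fatty acids in the cytoplasm, had 63.12, 62.82 and 64.21 FPKM in the controls against 20.36, 25.51 and 19.75 FPKM in the knockouts. The highest knockout value was that of replicate 2, the library that stood apart, and it was still far below the control libraries. Fabp4 fell by 1.50 on the log2(FPKM + 1) scale (standard error 0.0942, 95% interval -1.72 to -1.28, limma adjusted p = 6.94e-06), and by 1.61 without knockout replicate 2. The gene has 4 exons on chromosome 3 (chr3:10204342-10208616, reverse strand). Its relative Fabp5, the epidermal type carrier, rose by 0.48, from 237.12, 254.75 and 275.79 FPKM to 323.78, 416.83 and 337.28 FPKM (limma adjusted p = 0.00772). The carriers thus differed in direction in the same libraries.

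Plin2, the coat protein of lipid droplets, had 90.80, 92.09 and 93.53 FPKM in the controls against 60.29, 65.22 and 59.57 FPKM in the knockouts. The groups did not overlap. Plin2 fell by 0.57 on the log2(FPKM + 1) scale (standard error 0.0580, 95% interval -0.71 to -0.44, limma adjusted p = 0.000113), and the knockout kept 67.0% of the control level. It lies on chromosome 4 (chr4:86626910-86670217, reverse strand).

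Cd36 and Adipoq, both strongly expressed in mature fat cells, were at or near 0. Cd36 was read at 0.02 FPKM in control replicate 2 and was listed at 0 in the other 5 libraries. Adipoq was read at 0.08 FPKM in control replicate 2, at 0.04 FPKM in knockout replicates 1 and 2, and was listed at 0 in the other 3 libraries. The two-sided exact permutation p was 1 for each, and at these levels no difference could be read. Cd36 lies on chromosome 5 (chr5:17781690-17888959, reverse strand) and Adipoq on chromosome 16 (chr16:23146536-23157968, forward strand).

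All 5 members that passed the filter on low values fell, and each also exceeded 1 FPKM in every library of both groups. Over all tested genes, 50.2% passed the threshold, 26.7% with lower and 23.6% with higher values in the knockout, and the groups did not overlap for 60.7%. The median difference was -1.36 over the 5 members and -0.02 over all tested genes. The differences were unequal: the differences of Lpl, Fabp4 and Cebpb lay below the 5th percentile of all tested genes, at -1.02, that of Plin2 lay between the 5th and the 25th percentile, at -0.26, and so did that of Cebpa. This count is a description and tests nothing particular to these genes.

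**Figure D2:**
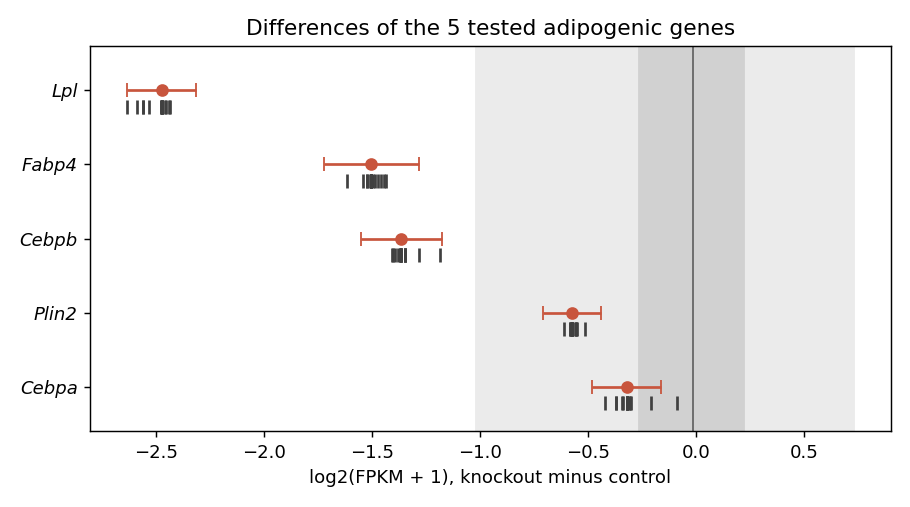
Difference in log2(FPKM + 1), knockout minus control, of the 5 tested members; the points carry 95% intervals from limma, and each tick below a point is the value under another setting or with a library left out. Dark and light grey span the 25th to 75th and 5th to 95th percentiles of 11112 tested genes, and the line is their median; Lpl, Fabp4 and Cebpb lie outside the grey, while the tick of Cebpa nearest 0 is the value with chromosomes centred.

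The order of levels per transcript length was the same in both groups for most members. In the control libraries it ran from Cebpb through Plin2, Fabp4, Lpl, Cebpa and Pparg, with no overlap between neighbours, down to Adipoq, Zfp423 and Cd36, which overlapped one another. In the knockout libraries Plin2 and Cebpb overlapped at the top (lowest Plin2 value 59.57 FPKM, highest Cebpb value 62.47 FPKM), and Zfp423 lay above Adipoq without overlap. Among the tested members, spread within the knockout group was widest for Fabp4, with a coefficient of variation of 14.5%, against 1.15% in the control. The tested genes nearest to each member, by Euclidean distance between centred log2(FPKM + 1) values over 6 libraries, were Nlrc5 and Fah for Lpl (distances 0.147 and 0.182), Cda and Cavin4 for Fabp4 (0.118 and 0.153), Ccl9 and Cd47 for Cebpb (0.112 and 0.130), Emd and Tspan7 for Plin2 (0.032 and 0.047) and C9orf72 and Rab32 for Cebpa (0.042 and 0.057). Unnamed gene models were left out of this search. Some neighbours were low in the knockouts. Nlrc5 went from a control mean of 5.71 FPKM to 0.25 FPKM, and Fah from 18.7 to 2.78 FPKM. Cda went from 2.3 to 0.133 FPKM and Cavin4 from 3.73 to 0.66 FPKM. The log2(FPKM + 1) scale understates the change of low genes, so a small distance does not mean an equal ratio.

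Of 24 other regulators that favour fat cell formation, 18 were tested. Of these, 7 fell (38.9%), 3 rose (16.7%) and 8 missed the threshold. Over all tested genes 26.7% fell and 23.6% rose, shares to be read beside the counts of this list and those that follow. Over the list, the median difference was -0.07. Cebpd, the partner of Cebpb in early induction, had 63.13, 62.58 and 64.75 FPKM in the controls against 31.68, 32.73 and 29.22 FPKM in the knockouts, and fell (95% interval of the difference -1.14 to -0.86, limma adjusted p = 5.43e-06). The prolactin and growth hormone signal transducer Stat5a fell by 1.15, and Klf9, a Kruppel-like factor, fell by 0.88. Those that rose were Klf5 by 0.53, Klf15 by 0.46 and the phosphatidate phosphatase Lpin1 by 0.38. Klf15, at a control mean of 0.88 FPKM, passed the filter on low values through the knockouts alone. The calls of Klf5 and Lpin1 were lost with chromosomes centred, which left 1 rise, as did a mean of at least 5 FPKM. The count of rises was 6 without knockout replicate 2, 6 with quantile normalization and 5 with median-of-ratios scaling. Rxra, the receptor that pairs with PPAR-gamma on DNA, was at a mean of 21.8 FPKM in the controls and 16.5 FPKM in the knockouts and also fell, by 0.38. It was named here after its value had been seen.

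Regulators that restrain fat cell formation moved in both directions: of 25 listed, 23 were tested, 9 rose, 8 fell and 6 missed the threshold, and their median difference was -0.13. The 3 largest rises were in genes for secreted or membrane proteins. Dlk1, the preadipocyte factor that is lost as fat cells mature, had 2.18, 2.79 and 2.11 FPKM in the controls against 14.49, 17.90 and 14.86 FPKM in the knockouts, and rose by 2.32 (limma adjusted p = 1.31e-06). Wnt10b, a Wnt ligand that blocks adipogenesis, rose by 1.89, from 0.30, 0.32 and 0.34 FPKM to 3.8, 3.65 and 4.27 FPKM. Its controls were under 1 FPKM, so it passed the filter on low values through the knockouts alone. Wnt5a rose by 2.09, from 4.89 ± 0.159 to 24.2 ± 2.44 FPKM (SD, n = 3). The largest falls were of Trib3, a pseudokinase, by 1.21, and of the transcription factors Gata2 and Gata3, which repress Pparg, by 0.95 and 0.94. Gata3, at a knockout mean of 0.46 FPKM, passed the filter on low values through the controls alone. Groups that do not overlap were a condition for naming these 6 genes, and 60.7% of all tested genes had such groups.

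**Figure D3:**
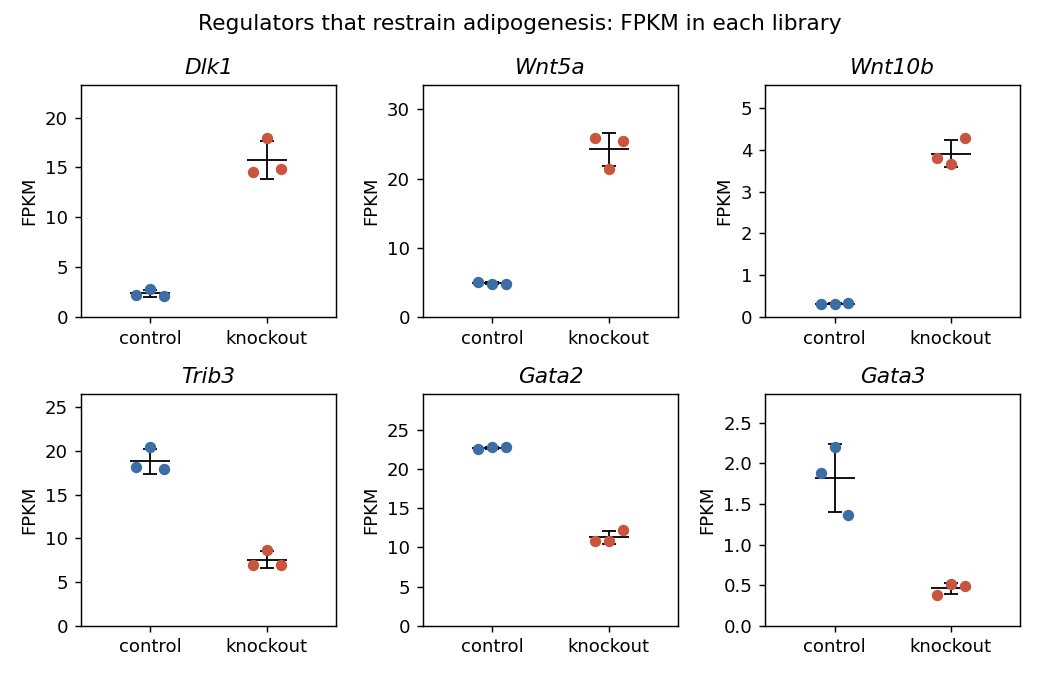
FPKM in each library of the 6 named regulators that restrain fat cell formation, with the mean and SD of 3 libraries and an axis from 0 in each panel. Dlk1, Wnt5a and Wnt10b lie higher and Trib3, Gata2 and Gata3 lower in all 3 knockout libraries.

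The BMP pathway, whose ligands promote commitment of precursors, is known to act upstream of Zfp423 and Pparg. Of 13 listed genes, 10 were tested, 6 rose, 0 fell (0 also at an unadjusted limma p under 0.05) and 4 missed the threshold. Across tested genes of the list the median difference was 0.50. The BMP antagonist noggin (Nog) rose by 1.79, from 0.65, 0.56 and 0.59 FPKM to 4.39, 5.01 and 4.18 FPKM (limma adjusted p = 1.06e-06). Its controls were under 1 FPKM, so it passed the filter on low values through the knockouts alone. Ccn5, a secreted protein that binds ZFP423 in precursor cells, rose by 0.62, and the BMP signal transducer Smad1 rose by 0.55. The rises thus included an inhibitor of the pathway, and 1 gene of it fell without knockout replicate 2 or with chromosomes centred. The count of rises was 4 with chromosomes centred or with a mean of at least 5 FPKM, and 9 without knockout replicate 2.

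Of 21 listed lipid droplet genes other than Plin2, 12 were tested. Of these, 6 fell (50%), 1 rose (8.33%) and 5 missed the threshold, against 26.7% lower and 23.6% higher over all tested genes. Over the list, the median difference was -0.20. Dgat2, which makes triglyceride, had 3.09, 2.87 and 2.96 FPKM in the controls against 1.20, 0.97 and 0.66 FPKM in the knockouts, and fell by 1.04. Hormone-sensitive lipase (Lipe) averaged 3.42 ± 0.403 FPKM in the controls against 1.18 ± 0.169 FPKM in the knockouts (SD, n = 3) and fell by 1.02, and seipin (Bscl2), which shapes budding droplets, fell by 0.47. Monoglyceride lipase (Mgll) rose, from 0.43, 0.49 and 0.52 FPKM to 2.43, 2.79 and 2.36 FPKM (limma adjusted p = 6.94e-06). Mgll passed the filter on low values through the knockouts alone, and Dgat2, at a knockout mean of 0.943 FPKM, through the controls alone. The call of Bscl2 was lost with chromosomes centred and without control replicate 2. The count of falls was 2 without control replicate 2, and 3 with chromosomes centred or with a mean of at least 5 FPKM; 2 genes rose with chromosomes centred and 0 with that higher minimum. The droplet coat genes of mature fat cells, Plin1 and Cidec, had means of 0.01 FPKM or less in both groups.

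Genes of fatty acid uptake and partners of lipoprotein lipase divided evenly: of 29 listed, 21 were tested, 8 rose, 7 fell and 6 missed the threshold, and their median difference was -0.00. Angptl4, a secreted inhibitor of lipoprotein lipase, rose by 1.22, from 6.99, 6.74 and 6.71 FPKM to 17.97, 16.58 and 17.06 FPKM (limma adjusted p = 1.97e-06). It therefore differed in the opposite direction to Lpl in the same libraries, whereas Lmf1, which matures the lipase, did not pass. Caveolin-1 (Cav1) rose by 1.15 and the heart type carrier Fabp3 rose by 0.84. The lipoprotein receptor Vldlr fell by 1.09, the fatty acid activating enzyme Acsl4 fell by 0.88 and the transporter family gene Slc27a3 fell by 0.86. Vldlr, at a knockout mean of 0.767 FPKM, passed the filter on low values through the controls alone.

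**Figure D4:**
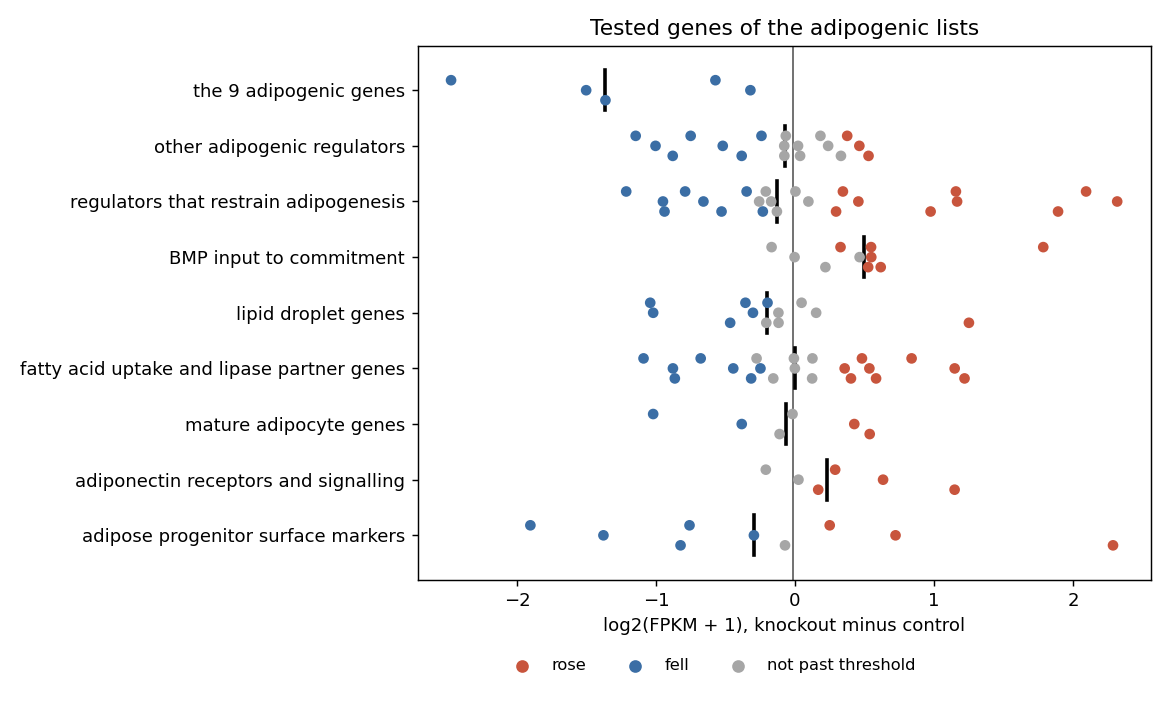
Difference in log2(FPKM + 1), knockout minus control, of every tested gene of each list; each point is a gene, coloured by whether it rose, fell or did not pass the threshold, a black bar is the median of the list, and the thin line is the median of all tested genes. All 5 tested members lie left of the line, the BMP list has no fall, and the restraining regulators spread from -1.21 to 2.32.

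Genes of the mature fat cell were largely at or near 0. Of 26 listed, 22 were in the table and 6 were tested, of which 2 rose, 2 fell and 2 missed the threshold. Across tested genes of the list the median difference was -0.06, and 1 gene fell without control replicate 1, with TPM scaling or with a mean of at least 5 FPKM. The elongase Elovl6 rose by 0.54, and Lipe and the carboxylase Acaca fell by 1.02 and 0.38. The call of Acaca was lost without control replicate 1 (adjusted p = 0.0512) and with TPM scaling (adjusted p = 0.0537). Among the 10 adipocyte markers, the 8 in the table summed to 3.27 to 3.97 FPKM in the control and 1.21 to 1.55 FPKM in the knockout libraries, nearly all of it Lipe. Slc2a4, the insulin-responsive glucose transporter, had means of 0.04 and 0.12 FPKM, and Cfd, adipsin, was listed at 0 in all libraries.

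Of 7 listed receptors and mediators of adiponectin, 6 were tested, 4 rose, 0 fell (0 also at an unadjusted limma p under 0.05) and 2 missed the threshold, while the hormone itself was barely read. Over the list, the median difference was 0.23. Cdh13, T-cadherin, which binds adiponectin, rose by 1.15, from 10.22, 10.37 and 10.22 FPKM to 24.19, 22.20 and 25.67 FPKM (limma adjusted p = 4.93e-06). The adaptor Appl1 rose by 0.63 and the receptor Adipor2 by 0.29. With chromosomes centred 1 gene of this list rose and the calls of Appl1 and Adipor2 were lost (that of Adipor2 also with TPM scaling), and 1 gene fell without knockout replicate 1.

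Of 12 surface markers used to sort fat cell precursors, 9 were tested, 5 fell, 3 rose and 1 missed the threshold, and their median difference was -0.30. Ly6a, which encodes Sca-1, averaged 359.7 ± 9.24 FPKM in the controls against 96.3 ± 16.4 FPKM in the knockouts (SD, n = 3) and fell by 1.90. Cd24a fell by 1.38 and the tissue factor gene F3 fell by 0.82. For Thy1 the 3 controls listed 0 and the knockouts had 3.78, 4.18 and 3.70 FPKM, so it passed the filter through the knockouts alone, and its place among the rises rests on zeros that may be failed estimates. The integrin chain Itgb1 rose by 0.72 and Pdgfrb rose by 0.25, a call that was lost without control replicate 2 (adjusted p = 0.0505) and with TPM scaling (adjusted p = 0.0544). With chromosomes centred the difference of Pdgfrb was -0.14. The markers on this list thus moved in both directions.

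Macrophages and endothelial cells can also make Fabp4, Lpl, Cd36 and Plin2, and their markers were read beside these genes. The 9 macrophage markers in the table, of 12 listed, summed to 30.42 to 35.03 FPKM in the control and to 13.07 to 14.50 FPKM in the knockout libraries. Most of this was Cd14, which fell by 1.41, followed by Cd68, which fell by 0.44, and Lyz2, which did not pass. Itgam, Fcgr1, Mrc1 and Marco had means of 0.05 FPKM or less in both groups, and Ptprc was listed at 0 throughout. The means of Csf1r were 0.153 FPKM in the control and 0.323 FPKM in the knockout. The 9 endothelial markers in the table, of 10 listed, summed to 9.06 to 9.66 FPKM in the control and 13.34 to 14.05 FPKM in the knockout libraries, led by Egfl7 and Flt1, with Kdr at means of 0.267 and 0.0967 FPKM, Pecam1 at 0.08 and 0.0433 FPKM, Cdh5 at 0.0133 and 0.0267 FPKM, and Tie1 listed at 0. The part of such cells in the falls of Lpl, Fabp4 and Plin2 was not tested.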

How the data were processed

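RNA was sequenced from 6 libraries, 3 per group, grouped by their titles. The labels give TRIZOL for extraction of total RNA and DNBSEQ for the libraries. Build mm10 and the aligners HISAT2 2.0.4 and Bowtie2 2.2.5 are taken from the processing notes of the submitters, and reads had been cleaned of adapters and poor-quality sequence. The deposited values are FPKM, computed by the authors with RSEM and given to 2 decimals, with the authors' mean of each group, which was not used. The annotation and the use of strand are not given in the sources used here. Depth is unknown, so no interval from counting was computed, and a gene at 0 may be a failed estimate.

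FPKM was converted to log2(FPKM + 1), which understates the change of low genes. The 11112 genes with a mean of at least 1 FPKM entered the comparison of groups, made in R 4.3.3 with limma 3.58.1 (empirical Bayes moderation, mean-variance trend, no covariate, two-sided). A gene with a mean under 1 FPKM in a group could enter through the other group alone, so its direction was set by the filter. Benjamini-Hochberg adjustment ran over all tested genes, with a threshold of 0.05, after the procedure had been tested on simulated data. Exact two-sided permutation tests used the 20 assignments of 6 libraries. Chromosomes and promoter windows came from RefSeq (GRCm38.p6) and exons from GENCODE M21, both on the assembly of mm10, with genes matched by gene identifier or symbol.

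The members and all lists were chosen with earlier results of these data known. Genes were named by rule: all members, S100a8, up to 3 largest rises and 3 largest falls of each pathway list past the threshold without overlap between groups, the 3 most abundant genes and those at 0 in each marker list, and the 2 nearest profiles of each tested member. Some genes that the rule names are not reported here. Other names were added after their values were seen: Rxra, Fabp5, Tmem189, Gm45091, Lmf1, Plin1, Cidec, Csf1r, Dcn, Hlf, Runx1, Procr, Mecom, Pecam1, Cdh5, Kdr and Slc2a4. The macrophage markers Itgam, Fcgr1, Mrc1 and Marco were added in the same way. Alternatives were pseudocounts of 0.1 and 0.5, no filter, a mean of at least 5 FPKM, TPM, median-of-ratios and quantile scaling, no trend, the replicate number as a block, chromosomes centred and each library left out.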

Additional observations from a re-analysis of the deposited data

How the results depend on the processing

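Lpl, Fabp4, Cebpb and Plin2 stayed lower and past the threshold under all 16 alternatives, with differences of -2.63 to -2.43, -1.61 to -1.44, -1.41 to -1.18 and -0.61 to -0.51. Cebpa stayed lower in the 15 that tested it (-0.42 to -0.086), but with chromosomes centred it missed the threshold at -0.086 (adjusted p = 0.350). That alternative removes a shift of -0.23 from the genes of chromosome 7, and what lies behind that shift was not tested. Cebpa was not tested with a mean of at least 5 FPKM. S100a8 stayed past the threshold in the 15 that tested it. With a pseudocount of 0.1 the untested members moved to 0.77 for Pparg, -0.088 for Cd36 and 1.20 for Zfp423. Zfp423 moved to 0.36 with a pseudocount of 0.5 and to 0.36 with TPM scaling, and with no filter the members that rose numbered 1, Zfp423. The other model, quantile and chromosome alternatives were not run for the 4 untested members. The genes past the threshold numbered 4204 to 7391, against 5580, highest without knockout replicate 2. Of 580 values of 37 named list genes, 568 stayed on their side of the threshold, 11 fell short of it, and that of Pdgfrb changed sign to -0.14 with chromosomes centred. Of 256 list counts, 239 stayed within 1.5 times the reported count, and 17 are given beside their lists. Deviations from the group means correlated at 0.327, 0.104 and -0.214 between libraries sharing a replicate number, so the numbers were not taken to pair libraries. Adding the replicate block left 5527 genes past the threshold, among them the 5 members that fell. The files hold no counts, so no limit from depth can be set.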
